A study of Mus musculus with 18 samples.

Results

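Long intergenic noncoding RNAs (lincRNAs) were followed in microglia and macrophages from the injured spinal cord. Of the 53465 gene rows in the deposited count table, 5307 carried the biotype lincRNA, and 155 of these (2.92%) were taken as expressed. A row was taken when it had at least 10 counts in each of the 9 microglia libraries or in each of the 9 macrophage libraries. The members were thus selected on their counts, and their presence in a cell type is a description and was not tested. The limit was reached by 64 lincRNAs in both cell types, by 17 in microglia only and by 74 in macrophages only.

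The cells came from 9 adult female C57BL/6J mice with a spinal cord contusion injury (SCI). At 48 h after injury, 3 mice received an intraspinal injection of PBS, 3 of recombinant interleukin 13 (rIL-13) and 3 of recombinant interleukin 4 (rIL-4), and the cells were collected 24 h later. Microglia were sorted as CD45low CD11b+ F4/80+ cells and macrophages as CD45high CD11b+ F4/80+ cells of the same cords, which gave 6 groups of 3 libraries. All groups, PBS included, therefore carried the injury and the injection, and no uninjured cord was analysed here. Mice 1, 2 and 3 received PBS, mice 5, 6 and 7 rIL-13, and mice 8, 9 and 10 rIL-4.

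A lincRNA is a transcript longer than a small RNA that has no known protein product and lies between protein-coding genes. Most are transcribed by RNA polymerase II, capped and polyadenylated like mRNA, and many are kept at low levels and restricted to few cell types. The best-known members act in the nucleus. Malat1 is a component of nuclear speckles, Neat1 is the scaffold of paraspeckles, and Xist coats and silences the inactive X chromosome. Both cytokines signal through the IL-4 receptor alpha chain and the transcription factor STAT6, which drives the alternative activation of macrophages.

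Each library held between 35961305 and 45849829 counts. The members took 0.58% to 3.53% of them, of which 0.461% to 3.36% fell on 3 lincRNA rows placed over a ribosomal RNA repeat and 0.103% to 0.223% on all other members. Of 10 microglia markers, 9, 10 and 10 were higher in microglia with PBS, rIL-4 and rIL-13, and 9, 10 and 10 of 10 macrophage markers were lower. Marker genes of other cell types had counts in the microglia libraries, and the source of these counts was not tested. The summed normalised counts of 9 fibroblast and pericyte markers were 9354 to 328932 in microglia libraries and 12.4 to 388 in macrophage libraries. Mitochondrial genes took 7.89% to 17% of the counts in rIL-4 microglia, 5.1% to 5.49% in rIL-13 microglia and 4.01% to 5.13% in PBS microglia.

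The libraries of mouse 7 stood apart by a member. Xist had 1 count in its microglia library and 87 in its macrophage library, against 2650 to 10605 counts in the other 16 libraries. Tsix, the antisense partner of Xist, had 11 counts and 1 count in the libraries of mouse 7. All 4 Y-linked genes looked at (Ddx3y, Uty, Kdm5d and Eif2s3y) were at 0 in every library, and the X-linked coding counts of mouse 7, as a percentage of its autosomal coding counts (3.26% in microglia and 2.49% in macrophages), lay within the range of the other mice. Because of its single count in mouse 7, Xist met the selection limit only in macrophages. The numbers of changed members that rest on rIL-13 libraries are given below with and without mouse 7.

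Expressed lincRNAs were fewer and lower than coding genes. By the same limit, 11430 of 22040 protein-coding rows (51.9%) were expressed, and 85.4% of these reached it in both cell types, against 41.3% of the expressed lincRNAs. A further 3743 lincRNA rows were at 0 in all 18 libraries. Just inside the limit in microglia, the lowest counts were 10 for Gm17300, 10 for Gm11707 and 11 for Gm28901, and just outside it they were 9 for B230208H11Rik, Gm16576 and C330013E15Rik. In macrophages, Gm28901, Gm26582 and Gm42595 entered with a lowest count of 10, and 5830416I19Rik, 5930430L01Rik and 9330104G04Rik stayed out with 9.

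Levels were compared between genes as normalised counts per kb of annotated exon. The median level was 65.9 for the 81 lincRNAs that reached the limit in microglia and 207 for coding genes, and it was 36.5 for 138 lincRNAs and 192 for coding genes in macrophages. Only 16 lincRNAs in microglia and 18 in macrophages were above the coding median. AY036118, a row over the ribosomal RNA repeat, had the highest mean level per kb, 664019 in microglia and 637826 in macrophages. Outside the repeat, Gm10076 led with 10367 and 8547 normalised counts per kb. Tmem250-ps, named as a pseudogene of Tmem250, had 1713 in microglia and 1327 in macrophages. Malat1 had 1538 and 1802 normalised counts per kb, and 2900097C17Rik, the mouse counterpart of NORAD, which binds Pumilio proteins, had 1198 and 1519.

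**Figure D1:**
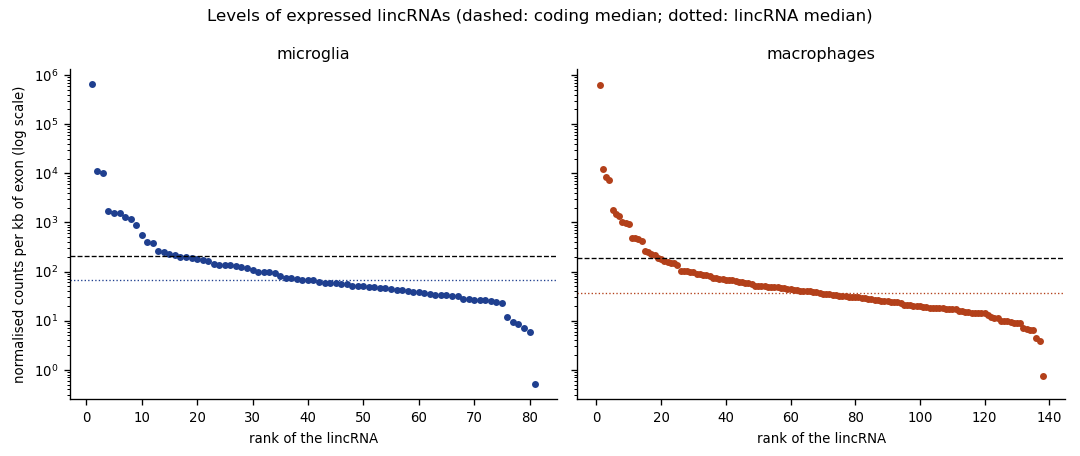
Mean normalised counts per kb of exon (log axis) of the expressed lincRNAs in microglia (left, 81) and macrophages (right, 138), ordered by rank, with one point per lincRNA. The dashed line is the median of coding genes (207 and 192) and the dotted line that of the lincRNAs (65.9 and 36.5), and a few RNAs stand far above the rest.

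The spread between mice was wide. The median coefficient of variation of a lincRNA over the 3 mice of a group was 22.4% in PBS macrophages, 32.4% in rIL-13 macrophages and 30.7% in rIL-4 macrophages. It was 32.8%, 37.1% and 38.6% in PBS, rIL-13 and rIL-4 microglia. Coding genes at the level of the middle lincRNAs had medians of 24.5%, 28.4% and 27.3% in the same macrophage groups and 30.7%, 42.1% and 47% in the microglia groups. In both cytokine-treated microglia groups, these coding medians were above those of the lincRNAs. This was not tested.

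All 155 members were matched to GENCODE M21 by gene identifier. Of these, 144 kept the biotype lincRNA there, 5 were antisense, 4 bidirectional promoter and 2 processed transcripts. Most had several exons (134, against 21 with 1 exon), and the median exon length was 2141 bp. The exons of 28 members overlapped exons of a coding gene, for 4 of them on the same strand, and a further 36 lay within 5 kb of a coding gene. The libraries carried no strand information, so that reads from such overlaps cannot be told apart. The remaining isolation varied, with 28 members more than 50 kb from any coding gene.

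At 1 count or more, the number of lincRNAs detected was lowest in rIL-4 microglia. In PBS microglia, 582, 595 and 683 lincRNA rows had at least 1 count. In rIL-13 microglia, 520, 399 and 465 had one, and in rIL-4 microglia 380, 383 and 374. Neither cytokine group overlapped PBS, and p was 0.1 for each comparison by a two-sided exact permutation test, the smallest value that 3 mice against 3 can give. In macrophages the range over all 9 libraries was 620 to 746, and each cytokine group overlapped or touched the PBS group (exact permutation p = 0.2 for each cytokine against PBS). With at least 10 counts, rIL-4 microglia had 246 to 262 lincRNA rows and PBS microglia 329 to 385, while macrophages had 223 to 308. Coding rows showed the same order in microglia, with means of 14326 ± 121 (SD, n = 3) for PBS, 13462 ± 112 for rIL-13 and 12662 ± 133 for rIL-4. In macrophages the coding means were 13592 ± 153 for PBS, 13339 ± 131 for rIL-13 and 13188 ± 91.7 for rIL-4. There too, rIL-4 lay below PBS without overlap (exact permutation p = 0.1). Among the 155 members, 5, 12 and 12 were at 0 in PBS microglia, 13, 28 and 15 in rIL-13 microglia and 25, 22 and 23 in rIL-4 microglia. All of these zeros fell on the 74 members that entered through macrophages only, since a member that entered through microglia could not be at 0 there, so that the selection sets any contrast with macrophages (2 to 6 at 0, all among the 17 that entered through microglia only). In the same rIL-4 microglia libraries, mitochondrial genes took 7.89% to 17% of the counts (4.01% to 5.13% with PBS), and the fibroblast and pericyte sum (9354 to 64486, against 103983 to 149444) and the neuron sum (246 to 361, against 644 to 1045) were lower, and their part was not tested. In these bulk samples, fewer cells of a type and less RNA per cell cannot be told apart.

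**Figure D2:**
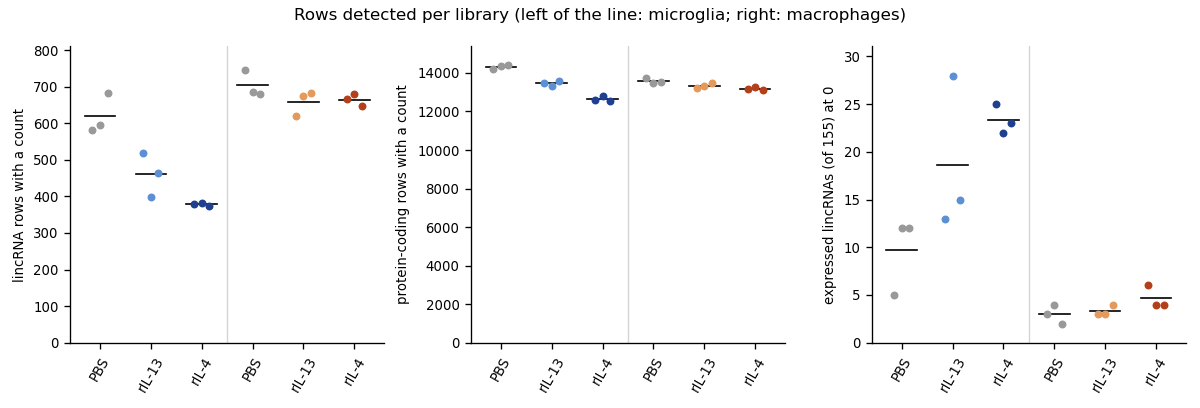
Number of lincRNA rows with a count (left), protein-coding rows with a count (middle) and expressed lincRNAs at 0 (right) in each library, with points for mice and lines for group means, microglia left and macrophages right of the grey line. The rIL-4 microglia had the fewest lincRNA rows with a count (374 to 383), below all PBS microglia (582 to 683), while macrophages stayed between 620 and 746.

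In macrophages, rIL-4 changed 12 of the 148 members tested against PBS, 6 higher and 6 lower (8.11%, where 14% of all 13606 genes tested passed the same threshold). The test was edgeR's quasi-likelihood test in the 9 macrophage libraries with Benjamini-Hochberg adjustment over all genes, and a change is an adjusted p under 0.05. The median log2 fold change of the members was -0.06, against 0.02 for all genes. The lincRNAs that rose were Gm42418, Gm19951, Gm807, 2900097C17Rik, Dubr and Tmem250-ps, and those that fell were Gm14221, AI427809, AC160562.1, Gm26885, Gm37168 and Gm4316. In the same libraries all 10 microglia markers were lower with rIL-4. Their summed normalised counts were 19347 to 34882 with rIL-4, 46454 to 96924 with rIL-13 and 116444 to 171677 with PBS, none of the 10 was at 0 in all libraries of a group, and their part in these changes was not tested. The sums of 8 other marker lists also differed between PBS and rIL-4 macrophages without overlap. The sum of 8 endothelial markers was 1856 to 2217 with PBS and 8266 to 17313 with rIL-4, but 4 of the 8 genes were called lower and 2 higher, with a median log2 fold change of -1.77. The sum of 8 astrocyte markers was 461 to 601 and 2201 to 19949, with 1 gene called higher and 1 lower of the 5 tested, a median of -0.20 and 1 of the 8 at 0 in all libraries of either group. The other sums were lower with rIL-4. They were those of 9 fibroblast and pericyte markers (205 to 347 with PBS, 12.4 to 54.6 with rIL-4, with 1 at 0 in all rIL-4 libraries), 10 neutrophil markers (37463 to 66449, then 8820 to 35115) and 8 oligodendrocyte markers (7249 to 8443, then 5203 to 5649). The remaining sums were low, with 8 neuron markers at 43.6 to 58 and 3.83 to 37.8 (2 and 3 genes at 0 in all libraries), 9 lymphocyte markers at 161 to 193 and 80.4 to 93.8 (2 and 4 at 0) and 7 eosinophil and mast cell markers at 455 to 563 and 172 to 231 (5 and 4 at 0). The part of these lists was not tested either.

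Gm19951 (ENSMUSG00000113136.1, chr12:99643093-99647221, plus strand, 2 exons) had 129, 189 and 150 normalised counts in PBS macrophages, 399, 1460 and 1003 in rIL-13 macrophages and 573, 1053 and 674 in rIL-4 macrophages. All cytokine-treated macrophage libraries were above all PBS libraries. The log2 fold change was 2.30 ± 0.42 (SE, n = 3 and 3) with rIL-4 (edgeR adjusted p = 0.00556) and 2.62 ± 0.43 with rIL-13 (adjusted p = 0.00811). Its nearest coding gene, Efcab11, is 45824 bp away and had a log2 fold change of -1.19 with rIL-4 (edgeR adjusted p = 0.213).

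Dubr (ENSMUSG00000022639.14, chr16:50719294-50732773, minus strand), an RNA first described upstream of Dppa2 in muscle differentiation, had 682, 856 and 772 normalised counts in PBS macrophages. The values were 941, 1178 and 1157 with rIL-13 and 1349, 1262 and 1183 with rIL-4. The 3 groups were ordered PBS, rIL-13, rIL-4, and rIL-4 did not overlap the others. With rIL-4 the log2 fold change was 0.72 ± 0.15 (edgeR adjusted p = 0.0103), and with rIL-13 it was 0.51 ± 0.15, which missed the threshold (adjusted p = 0.0916).

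The start regions of these 2 RNAs are shown because they kept their change with rIL-4 in every fit that left out a macrophage library. For both, RefSeq (GRCm38.p6) also had a promoter window within 3 bp of the start in GENCODE M21. The windows run from 250 bases before to 50 after the start, and capitals mark matches to TTC, any 4 bases and GAA, the palindrome that STAT6 binds, which reads alike on both strands. The Gm19951 window is chr12:99642846-99643145 on the plus strand and the Dubr window is chr16:50732724-50733023 on the minus strand.
Gm19951: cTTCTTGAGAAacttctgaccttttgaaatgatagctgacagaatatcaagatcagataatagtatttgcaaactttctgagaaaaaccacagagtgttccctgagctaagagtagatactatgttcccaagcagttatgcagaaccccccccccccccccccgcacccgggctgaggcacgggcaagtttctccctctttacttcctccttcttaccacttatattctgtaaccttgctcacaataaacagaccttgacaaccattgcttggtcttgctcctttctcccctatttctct
Dubr: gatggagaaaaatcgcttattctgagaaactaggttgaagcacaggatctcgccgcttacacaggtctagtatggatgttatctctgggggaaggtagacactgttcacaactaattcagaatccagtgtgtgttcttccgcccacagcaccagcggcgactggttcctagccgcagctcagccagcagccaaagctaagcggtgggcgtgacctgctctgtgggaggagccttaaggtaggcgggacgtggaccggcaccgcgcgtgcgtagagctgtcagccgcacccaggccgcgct
The Gm19951 window held 1 match and the Dubr window none. Of the 81 members with a RefSeq window under their symbol, 11 (13.6%) had a match, against 2164 of 27025 gene symbols (8.01%). A match to these letters is a description of the window and not a binding site.

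Gm42418, Gm26917 and AY036118 are rows over a copy of the ribosomal RNA repeat on chromosome 17, a sequence of which the genome holds many copies. Gm42418 (chr17:39846958-39848788, plus strand) had 3436, 5045 and 4266 normalised counts in PBS macrophages and 4262, 8151 and 6175 in rIL-13 macrophages. In rIL-4 macrophages it had 38030, 10231 and 40544, all above the other groups, with mouse 9 the lowest. The log2 fold change against PBS was 2.80 ± 0.46 (edgeR adjusted p = 0.00305). AY036118 (chr17:39847113-39848035, minus strand) lies wholly inside Gm42418, over 923 bp, and unstranded reads from this stretch cannot be assigned to either.

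The values of AY036118 overlapped between the groups. It had 413990, 446222 and 479101 normalised counts in PBS macrophages and 342219, 174864 and 946508 in rIL-4 macrophages, with a log2 fold change of 0.12 ± 0.59 (edgeR adjusted p = 0.924). Their sum was 417445, 451262 and 483387 with PBS and 380360, 185089 and 987075 with rIL-4. Within this sum, Gm42418 took 0.823%, 1.12% and 0.883% in PBS macrophages and 10%, 5.53% and 4.11% in rIL-4 macrophages. RSEM divides reads between overlapping rows, so that the Gm42418 value is uncertain, and the part of that division in the change was not tested. Gm26917 (chr17:39843013-39846341), which ends 616 bp before Gm42418, had a log2 fold change of -0.55 ± 0.33 (edgeR adjusted p = 0.325).

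Of the other lincRNAs that rose, 2900097C17Rik (chr2:156388065-156392979, minus strand) had 6108, 5390 and 4689 normalised counts in PBS macrophages and 13942, 7122 and 9799 in rIL-4 macrophages. The log2 fold change was 0.93 ± 0.28 (edgeR adjusted p = 0.0491), close to the threshold, and the rIL-13 libraries (6774, 4658 and 8729) overlapped both groups. Tmem250-ps (chr2:26136814-26140521, minus strand) rose from 2536, 2535 and 2972 to 4322, 3467 and 4019, a log2 fold change of 0.55 ± 0.14 (edgeR adjusted p = 0.0236). Gm807 (chr13:99100706-99107580, plus strand) had 17.1, 35.6 and 11.2 normalised counts with PBS, 54.3, 210 and 102 with rIL-13 and 62.2, 223 and 100 with rIL-4. Both cytokine groups lay above PBS for Gm807, although its spread within them was wide. The log2 fold change was 2.59 ± 0.66 with rIL-4 (edgeR adjusted p = 0.0267) and 2.53 ± 0.66 with rIL-13, which missed the threshold (adjusted p = 0.0639).

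**Figure D3:**
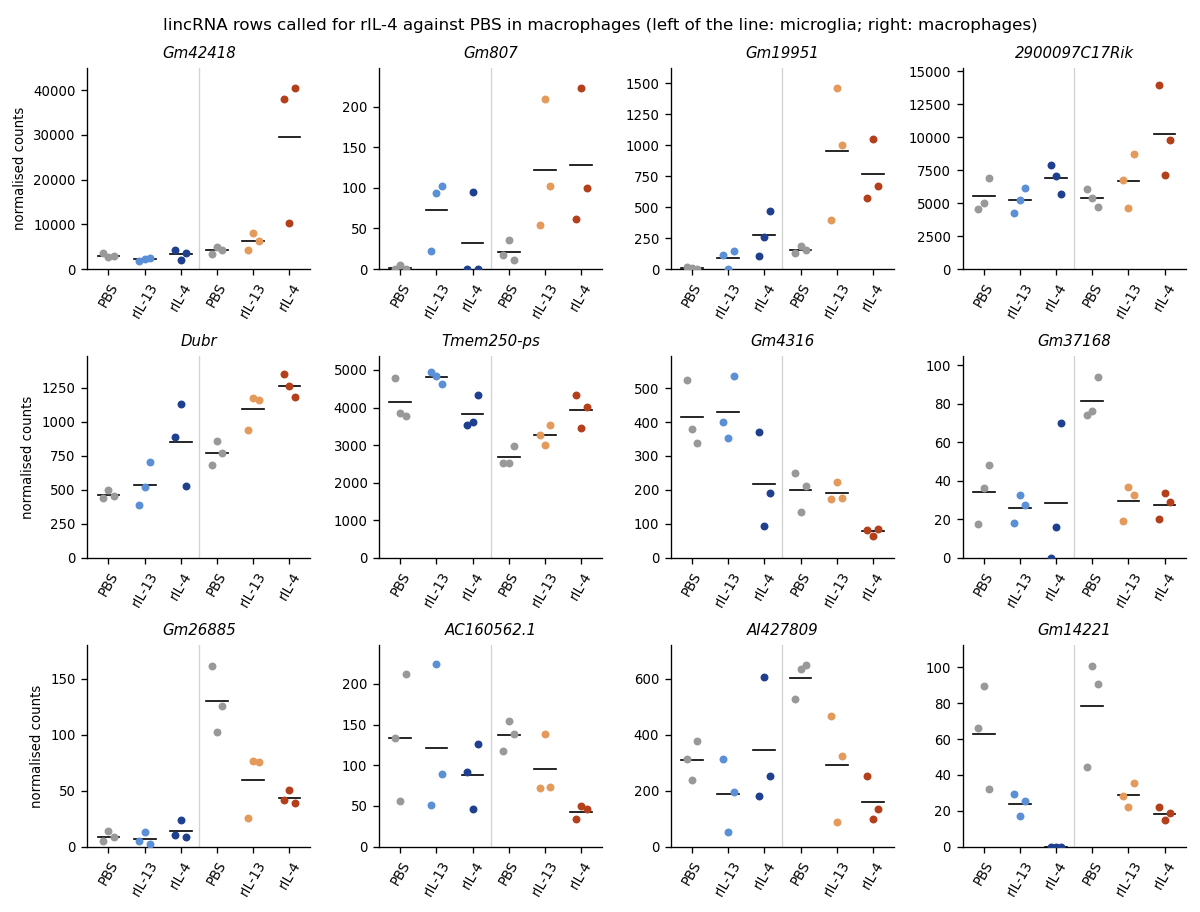
Normalised counts of the 12 lincRNAs that changed in rIL-4 against PBS macrophages, in every library, with points for mice and lines for group means, microglia left and macrophages right of the grey line. Gm19951 and Dubr were higher in all cytokine-treated macrophages than in PBS macrophages, while Gm42418 was high in rIL-4 macrophages only (10231 to 40544).

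Gm14221 (ENSMUSG00000078956.3, chr2:160568379-160619971, minus strand) was lower with rIL-4 in both cell types. In macrophages it had 44.4, 101 and 90.7 normalised counts with PBS and 22, 14.7 and 18.6 with rIL-4, a log2 fold change of -2.08 ± 0.46 (edgeR adjusted p = 0.0147). The rIL-13 macrophages, with 28.5, 22.4 and 35.8, lay between these groups without overlap (adjusted p = 0.12 against PBS). Its nearest coding gene, Top1, is 25917 bp away and had a log2 fold change of -0.37 in rIL-4 macrophages (edgeR adjusted p = 0.136).

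AC160562.1 (Gm33699 in GENCODE M21, chr9:61032212-61059116, plus strand) had 117, 154 and 139 normalised counts in PBS macrophages and 33.5, 49.4 and 46.4 in rIL-4 macrophages, with a log2 fold change of -1.66 ± 0.35 (edgeR adjusted p = 0.0113). Uaca, the nearest coding gene at 151842 bp, had a log2 fold change of -2.51 in this comparison (edgeR adjusted p = 0.0358). Gm4316 (chr8:123165255-123178765, plus strand), which lies within the span of the coding gene model Gm20388, fell from 250, 136 and 212 to 82.4, 65.1 and 85.6, a log2 fold change of -1.36 ± 0.29 (edgeR adjusted p = 0.0116). Gm20388 had a log2 fold change of 0.72 (edgeR adjusted p = 0.0288), opposite in sign. The 3 rIL-13 libraries of Gm4316 (174, 224 and 175) stayed within the PBS range.

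AI427809 (chr4:53261356-53270232, minus strand) had 527, 637 and 650 normalised counts with PBS and 254, 97.7 and 133 with rIL-4, and its log2 fold change was -1.90 ± 0.53 (edgeR adjusted p = 0.0382). In rIL-13 macrophages it ranged from 88.4 in mouse 6 to 468 in mouse 5. Gm37168 (chr1:191267178-191288714, plus strand) fell from 74, 76.1 and 94 to 20.1, 33.6 and 28.9, with a log2 fold change of -1.56 ± 0.41 (edgeR adjusted p = 0.0285). Its rIL-13 libraries, at 19, 36.6 and 32.5, were as low as those with rIL-4. Gm26885 (chr17:29446919-29491925, minus strand) fell from 162, 103 and 126 to 42.1, 50.4 and 39.2, with a log2 fold change of -1.57 ± 0.43 (edgeR adjusted p = 0.0344). Gm26885 overlaps 488 bp of the exons of Pim1, a kinase gene on the other strand, which had a log2 fold change of -0.30 ± 0.24 (edgeR adjusted p = 0.472).

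Leaving out each of the 9 macrophage libraries in turn kept the rIL-4 call for Gm42418, Gm19951, Dubr, AC160562.1 and Gm4316 in all 9 fits. The other 7 kept it in 3 to 6 of 9. The number of members that changed fell to 6 without the PBS macrophages of mouse 1, 2 or 3, to 8 when mouse 8 (rIL-4) was left out and to 5 when mouse 10 (rIL-4) was, and it was 11 to 14 in the other fits. With all 18 libraries in one model, 3 changes remained (Tmem250-ps, 2900097C17Rik and Gm42418).

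With rIL-13, 1 of the 148 members tested in macrophages changed against PBS, and it was Gm19951 (0.676%, where 4.19% of all genes passed). The count was 7 by DESeq2, 3 with no filter on low counts or with only the 6 libraries compared, and 0 with all 18 libraries in one model. Without mouse 7 the count was also 1, but it was 2 with PBS mouse 2 or rIL-4 mouse 8 left out and 4 with mouse 9 left out. Without mouse 7, the log2 fold change of Gm19951 was 2.56. Of the 9 fits that left out a library, the call was lost in 1, without the PBS macrophages of mouse 3 (edgeR adjusted p = 0.0503, with 0.00116 to 0.0503 over the 9 fits), and it was also lost with all 18 libraries in one model (adjusted p = 0.296). The members with the next smallest p that missed the threshold were Gm807, Gm26522 (-1.78 ± 0.48, edgeR adjusted p = 0.0724), Gm37168 (-1.46 ± 0.41, adjusted p = 0.0811) and Dubr. Gm26522 had 85.4, 83.5 and 77.2 normalised counts with PBS and 20.3, 24.8 and 25.7 with rIL-13. The rIL-4 and rIL-13 comparisons use the same PBS libraries.

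Between rIL-4 and rIL-13 macrophages, 0 of 148 members passed the threshold by edgeR's quasi-likelihood test, where 0.25% of all genes did. At an unadjusted p under 0.05 there were 10 members, against 11.1% of all genes, and DESeq2 called 3. With no filter on low counts, or with all 18 libraries in one model, 1 passed. Without mouse 7 the edgeR count was 0, and without rIL-4 mouse 9 it was 1. Gm42418 came closest, with a log2 fold change of 2.25 ± 0.45 (edgeR adjusted p = 0.0776). Gm4316 followed at -1.30 ± 0.29 (adjusted p = 0.105), then AC160562.1 at -1.15 ± 0.35 (adjusted p = 0.228), Gm26772 at 1.78 ± 0.56 (adjusted p = 0.245) and Gm26522 at 1.53 ± 0.48 (adjusted p = 0.246). Gm19951 had overlapping values with the 2 cytokines.

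In microglia, rIL-4 changed 2 of 149 members against PBS, both of them to 0 counts in all 3 rIL-4 libraries (where 2.22% of all 15566 genes passed). E230001N04Rik (ENSMUSG00000066170.6, chr17:28522720-28525398, plus strand) had 81.7, 35.6 and 133 normalised counts in PBS microglia, 59.4, 96.2 and 48.1 in rIL-13 microglia and 0 in each rIL-4 library. Taking the floor as 3 counts per library, its level fell at least 29.1-fold (edgeR adjusted p = 0.0268). Gm14221 had 66, 89.4 and 32.4 normalised counts with PBS, 29.2, 16.9 and 25.3 with rIL-13 and 0 in each rIL-4 library, and was at least 21.8-fold lower (edgeR adjusted p = 0.0351). Both RNAs entered the list through macrophages only, since a lincRNA at 0 in a microglia library could not enter through microglia. In macrophages, E230001N04Rik had 76.3, 51.6 and 57.1 with PBS and 26.8, 24.2 and 49.5 with rIL-4, and that difference missed the threshold (edgeR adjusted p = 0.219).

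These 2 changes in microglia rested on few libraries, and the count of members was 5 by DESeq2, 1 with no filter on low counts, 0 with only the 6 libraries compared and 8 with all 18 libraries in one model. Gm14221 lost its call in each of the 9 fits that left out a microglia library (edgeR adjusted p = 0.0524 to 0.145), and E230001N04Rik kept it in 1 of 9 (adjusted p = 0.0399 to 0.115). The count of members was 0 without any single library, mouse 7 included, except rIL-13 mouse 6, where it was 2. Fewer coding genes were also detected, and mitochondrial genes took a larger share, in the rIL-4 microglia. The fibroblast and pericyte sum and the neuron sum were lower, as given above, with 2 of the 8 neuron markers at 0 in all rIL-4 libraries and 1 in all PBS libraries. The sum of 10 microglia markers was 107714 to 184409 with rIL-4 and 259236 to 472802 with PBS (4 of 10 called lower), that of 10 macrophage markers 14467 to 25124 and 5444 to 10338 (2 called higher), and that of 8 endothelial markers 88628 to 115814 and 38658 to 85086 (none of the 8 called by edgeR). The libraries held 37963978 to 44431581 counts with rIL-4 and 37151793 to 39463858 with PBS. After TMM, their effective sizes relative to the mean library were 0.995, 1.298 and 0.914 with rIL-4 and 1.016, 1.152 and 1.08 with PBS. The part of these shifts in the 2 changes was not tested.

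The members that came next with rIL-4 in microglia missed the threshold. A930007I19Rik had a log2 fold change of 2.32 ± 0.71 (edgeR adjusted p = 0.149). Gm19951 had 16.7, 11.3 and 3.7 normalised counts in PBS microglia and 102, 260 and 467 in rIL-4 microglia, a log2 fold change of 4.72 ± 1.67 (adjusted p = 0.203). The groups did not overlap, and rIL-13 microglia (113, 0 and 149) had mouse 6 at 0. Neat1 had 2226, 3028 and 4557 with PBS and 3527, 6566 and 10787 with rIL-4 (1.11 ± 0.40, edgeR adjusted p = 0.209), and these groups overlapped.

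In rIL-13 microglia, 0 of 149 members passed against PBS in the edgeR test (0.366% of all genes did). At an unadjusted p under 0.05 there were 6 members, against 7.76% of all genes. DESeq2 called 0, and 2 passed with all 18 libraries in one model. The smallest p belonged to A930007I19Rik (1.89 ± 0.70, edgeR adjusted p = 0.548), followed by 4632415L05Rik (1.28 ± 0.49, adjusted p = 0.576), 9330175E14Rik, which was at 0 in all 3 rIL-13 microglia libraries, Gm26917 (-0.70 ± 0.28, adjusted p = 0.598) and Gm42047 (-1.16 ± 0.48, adjusted p = 0.605). Between rIL-4 and rIL-13 microglia, 0 of 149 passed by the same test (0.0385% of all genes did), with 11 at an unadjusted p under 0.05, against 11.4% of all genes, 4 by DESeq2 and 2 with all 18 libraries in one model. E230001N04Rik had the smallest adjusted p there (0.126 by edgeR) and Gm14221 the next (0.178), and Gm43042 had a log2 fold change of -2.07 ± 0.67 (adjusted p = 0.343). Without mouse 7, the edgeR counts in both comparisons were also 0.

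A930007I19Rik (ENSMUSG00000097855.7, chr19:29464750-29523159, minus strand) starts outside and ends inside Pdcd1lg2, which encodes the checkpoint ligand PD-L2, on the opposite strand. Their exons do not overlap. In microglia it had 24.6, 46.9 and 50 normalised counts with PBS, 245, 116 and 89.2 with rIL-13 and 141, 269 and 188 with rIL-4. All cytokine-treated microglia libraries lay above all PBS libraries. In macrophages it had 549, 833 and 616 with PBS, 695, 1130 and 1146 with rIL-13 and 916, 1160 and 811 with rIL-4, with overlap between groups (log2 fold change 0.53 ± 0.24, edgeR adjusted p = 0.171, with rIL-4 and 0.58 ± 0.24, adjusted p = 0.227, with rIL-13).

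Pdcd1lg2 was called in both cell types. It had 0 counts in all PBS microglia, 284, 77.6 and 146 normalised counts with rIL-13 and 1111, 1252 and 578 with rIL-4 (edgeR adjusted p = 0.0114 and 0.00208 against PBS). In macrophages it rose from 43.2, 57.7 and 43.6 with PBS to 1202, 1726 and 932 with rIL-13 and 2689, 6763 and 3990 with rIL-4, log2 fold changes of 4.74 ± 0.38 and 6.53 ± 0.41 (adjusted p = 0.000137 and 1.38e-05). In all 3 PBS microglia libraries, A930007I19Rik was thus detected where Pdcd1lg2 was at 0. Reads from the stretch that both genes span cannot be told apart by strand.

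**Figure D4:**
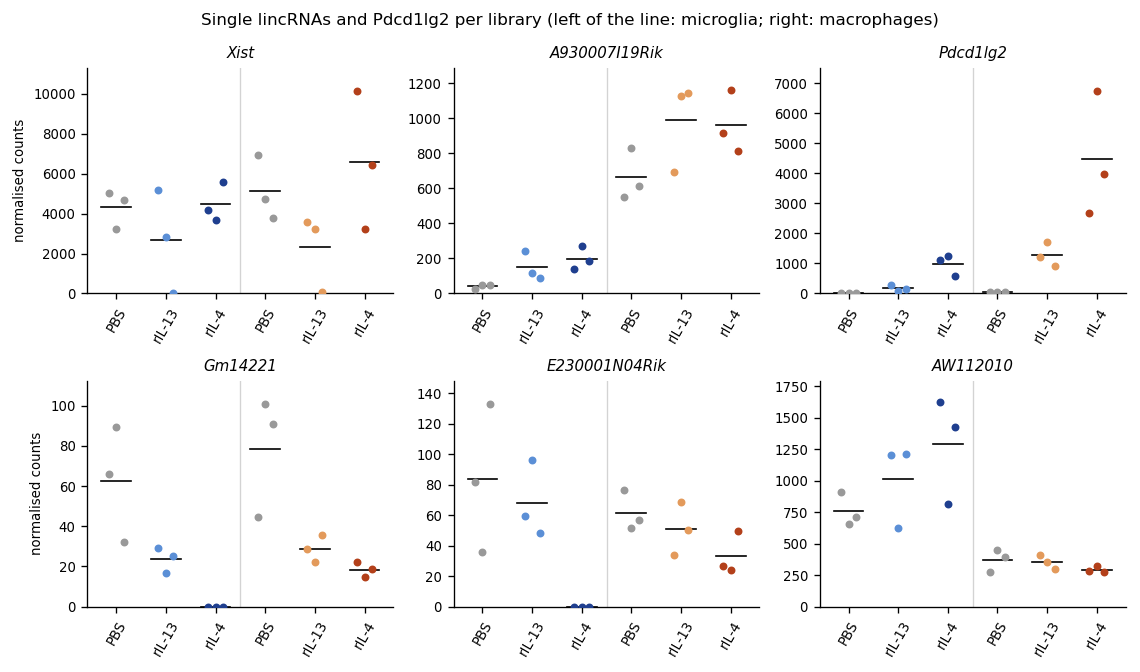
Normalised counts of Xist, A930007I19Rik, its neighbour Pdcd1lg2, Gm14221, E230001N04Rik and AW112010 in every library, with points for mice and lines for group means, microglia left and macrophages right of the grey line. Xist was near 0 in both libraries of mouse 7 (rIL-13), Gm14221 and E230001N04Rik were at 0 in all rIL-4 microglia, and AW112010 was higher in microglia.

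The difference in the rIL-4 response between the cell types was tested in one model of all 18 libraries, and of the 64 lincRNAs that reached the limit in both cell types it passed for 1, Gm42418 (1.56%, where 0.992% of all genes passed). For Gm42418 the difference of the log2 fold changes, microglia minus macrophages, was -2.66 ± 0.56 (edgeR adjusted p = 0.0348). Its microglia libraries had 3558, 2634 and 2892 normalised counts with PBS and 4339, 2015 and 3663 with rIL-4, which overlapped. Both cell types came from each mouse, and the call held with the mouse as a block (adjusted p = 0.00592). It was lost without mouse 1, 2, 3, 7, 8 or 10 (adjusted p up to 0.209 over the 9 fits).

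Over all 155 members the count was 4, and the other 3 (E230001N04Rik, Gm14221 and Gm26742) entered the list through macrophages only. Their presence in every macrophage library was thus selected, so that their calls cannot show a difference between the cell types. Their values are given as a description. For E230001N04Rik and Gm14221, rIL-4 microglia were at 0, as given above. Gm26742, which shares 79 bp of exon with Zfp608 on the other strand, had 9.85, 7.81 and 50 normalised counts in PBS microglia, 0 in all cytokine-treated microglia and 21.7 to 50.1 in all macrophages. The count over the 155 was 1 with the mouse as a block, 2 without mouse 7 and 0 to 4 over the fits that left out a mouse. For rIL-13 against PBS, 0 of the 155 members passed by edgeR (0.0242% of all genes), with 4 at an unadjusted p under 0.05, against 5.83% of all genes, and 1 by DESeq2, and without mouse 7 the edgeR count was also 0. For rIL-4 against rIL-13, 0 of the 64 lincRNAs that reached the limit in both cell types passed by edgeR. At an unadjusted p under 0.05 there were 2, against 10% of all genes. Over all 155 the edgeR count was 2 (where 0.139% of all genes passed). Both, E230001N04Rik and Gm14221, entered through macrophages only, so that this count cannot show a difference between the cell types either. The DESeq2 count was 5, and the edgeR count was 0 with the mouse as a block and 0 or 1 without any single mouse.

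Microglia and macrophages were compared within each treatment for the 64 lincRNAs that reached the limit in both, since the other members were selected through a single cell type. With PBS, 4 were higher and 7 lower in microglia (11 of 64, 17.2%, where 25.7% of all 16535 genes passed). With rIL-4, 6 were higher and 4 lower (10 of 64, 15.6%, against 27.6% of all genes). With rIL-13, 9 were higher and 8 lower (17 of 64, 26.6%, against 29.4%). Across the treatments, 19 lincRNAs passed at least in one, and 6 in all 3. Gm42031, Gm42047 and AW112010 were higher in microglia in all 3, and 1810058I24Rik, Gm28875 and A930007I19Rik were lower. Of these 6, Gm42031, Gm42047 and Gm28875 lost the rIL-13 call without mouse 7 (and without mouse 5), and Gm42031 lost the PBS call without any PBS mouse (edgeR adjusted p = 0.0764 to 0.227). Gm42047 lost the PBS call without mouse 3, AW112010 without mouse 1 or 3 and 1810058I24Rik without mouse 2 or 3, and 1810058I24Rik lost the rIL-4 call without mouse 9 or 10. The higher fibroblast and pericyte marker sums of the microglia libraries, given above, move with this contrast, as do those of 8 endothelial markers (38658 to 124486 in microglia and 1856 to 17313 in macrophages) and 8 neuron markers (246 to 1045 and 3.83 to 58, with 1 to 3 of the 8 at 0 in all libraries of a group). The sum of 10 neutrophil markers was lower in microglia without overlap (848 to 7971, against 8820 to 130860), with 6 of the 10 called lower in each treatment. Within each treatment, that of 8 oligodendrocyte markers was higher in microglia without overlap (6026 to 13193 and 5203 to 8443 over all treatments). Of 8 astrocyte markers, 6, 4 and 4 were called higher in microglia with PBS, rIL-4 and rIL-13 and none lower by edgeR, with median log2 fold changes of 3.81, 3.41 and 3.23, while their sums overlapped (3062 to 13189 in microglia and 461 to 19949 in macrophages). Mitochondrial genes took 4.01% to 17% of the counts in microglia and 1.1% to 2.08% in macrophages. The part of these lists and shares was not tested.

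A930007I19Rik showed the largest difference among these 64 with PBS. Its log2 fold change, microglia against macrophages, was -4.03 ± 0.43 with PBS (edgeR adjusted p = 4.09e-06), -2.72 ± 0.40 with rIL-13 (adjusted p = 7.78e-05) and -2.27 ± 0.39 with rIL-4 (adjusted p = 0.000375). The difference between treatments missed the threshold (edgeR adjusted p = 0.164 for rIL-4 and 0.744 for rIL-13, both against PBS). It kept its call in every fit that left out a mouse of the treatment.

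AW112010 (ENSMUSG00000075010.4, chr19:11047612-11055808, minus strand), a row named noncoding from which a peptide is translated in inflamed macrophages, had the largest log2 fold change towards microglia among the 64 with rIL-4. Microglia had 914, 653 and 711 normalised counts with PBS, 1207, 621 and 1215 with rIL-13 and 1625, 819 and 1425 with rIL-4. Macrophages had 274, 454 and 396, then 407, 353 and 301, then 282, 325 and 274. In each treatment all microglia libraries were above all macrophage libraries. The log2 fold change was 1.02 ± 0.30 with PBS (edgeR adjusted p = 0.0196), 1.52 ± 0.30 with rIL-13 (adjusted p = 0.00122) and 2.14 ± 0.31 with rIL-4 (adjusted p = 7.06e-05). With PBS the call held in 1 of the 3 fits that left out a PBS mouse.

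Gm42047 (chr8:121833247-121841178, plus strand) had 1044, 477 and 1836 normalised counts in PBS microglia and 455, 168 and 368 in PBS macrophages. Its log2 fold changes were 1.76 with PBS, 1.59 with rIL-13 and 1.99 with rIL-4 (edgeR adjusted p = 0.00853, 0.0147 and 0.00361). Gm42031 (chr8:85125872-85132289, minus strand) had 344, 201 and 488 in PBS microglia and 151, 95.8 and 125 in PBS macrophages, with log2 fold changes of 1.47, 1.86 and 2.00 (edgeR adjusted p = 0.0267, 0.00634 and 0.00423). With PBS, the microglia were above the macrophages for both in every library, and the spread among microglia was wide.

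Of the lincRNAs lower in microglia, Gm28875 (chr12:104925501-104926689, minus strand, 1 exon) had 226, 524 and 485 normalised counts in PBS microglia and 1011, 1029 and 1142 in PBS macrophages. Its log2 fold change was -1.36 with PBS, -1.11 with rIL-13 and -1.34 with rIL-4 (edgeR adjusted p = 0.00395, 0.0131 and 0.00423). It lies 3244 bp from Syne3. For 1810058I24Rik (chr6:35252654-35263496, plus strand) the microglia had 1838, 1742 and 1444 and the macrophages 2587, 3315 and 3016 with PBS, and the log2 fold changes were -0.83, -0.90 and -0.74 (edgeR adjusted p = 0.00444, 0.00225 and 0.00917). The 2 groups did not overlap for either RNA.

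The other members passed in some treatments only, and whether they differ between treatments was not shown by that. AC238811.2 (Gm36161 in GENCODE M21) was lower in microglia with PBS (-2.78 ± 0.62, edgeR adjusted p = 0.00304) and rIL-13 (-2.60 ± 0.61, adjusted p = 0.00433), from 26.6, 428 and 150 normalised counts in PBS microglia against 728, 1777 and 1666 in PBS macrophages. Tmem250-ps was higher in microglia with PBS (0.63 ± 0.14, edgeR adjusted p = 0.00284) and rIL-13 (0.55 ± 0.14, adjusted p = 0.00629). Its macrophage level rose with rIL-4, as described above. D5Ertd605e was higher in microglia with rIL-4 (1.91 ± 0.51, edgeR adjusted p = 0.00956) and rIL-13 (1.96 ± 0.51, adjusted p = 0.008). Gm42418 was lower in microglia with rIL-4 (-3.15 ± 0.42, edgeR adjusted p = 3.35e-05) and rIL-13 (-1.53 ± 0.40, adjusted p = 0.00867). AC101945.2 passed with PBS alone (lower), Snhg6 with rIL-4 alone (higher), and Gm26809, AU020206, 4632415L05Rik (higher) and Gm26541 (lower) with rIL-13 alone. AC101945.2 lost its call in each of the 3 fits that left out a PBS mouse (edgeR adjusted p = 0.0503 to 0.142). So did Snhg6 (adjusted p = 0.0645 to 0.175) and 4632415L05Rik (adjusted p = 0.0797 to 0.0927) without any mouse of their treatment. With the mouse as a block, the calls of Snhg6 (edgeR adjusted p = 0.0693) and 4632415L05Rik (adjusted p = 0.0523) were lost. Gm4316 was higher in microglia with rIL-4 (1.49 ± 0.43, edgeR adjusted p = 0.0163) and rIL-13 (1.17 ± 0.42, adjusted p = 0.048), and both calls were lost with the mouse as a block (adjusted p = 0.0507 and 0.0665). Dubr was lower in microglia with PBS (-0.73 ± 0.25, edgeR adjusted p = 0.0435) and rIL-13 (-1.02 ± 0.25, adjusted p = 0.0064). Its PBS call was lost in each of the 3 fits that left out a PBS mouse (adjusted p = 0.136 to 0.19). That call was also lost with DESeq2 size factors and with no filter on low counts.

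Leaving out single mice moved these counts. With PBS the count was 5, 6 and 4 without PBS mouse 1, 2 and 3, and 10 to 12 without any other mouse. With rIL-4 it was 7 to 10. With rIL-13 it was 11, 10 and 7 without rIL-13 mouse 5, 6 and 7, and 14 to 17 without any other. Without mouse 7, the rIL-13 calls lost were those of Gm42031, Gm42047, Gm28875, Gm4316, D5Ertd605e, Gm26809, AU020206, 4632415L05Rik, Gm26541 and Neat1. The 6 libraries of PBS alone gave 18.

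**Figure D5:**
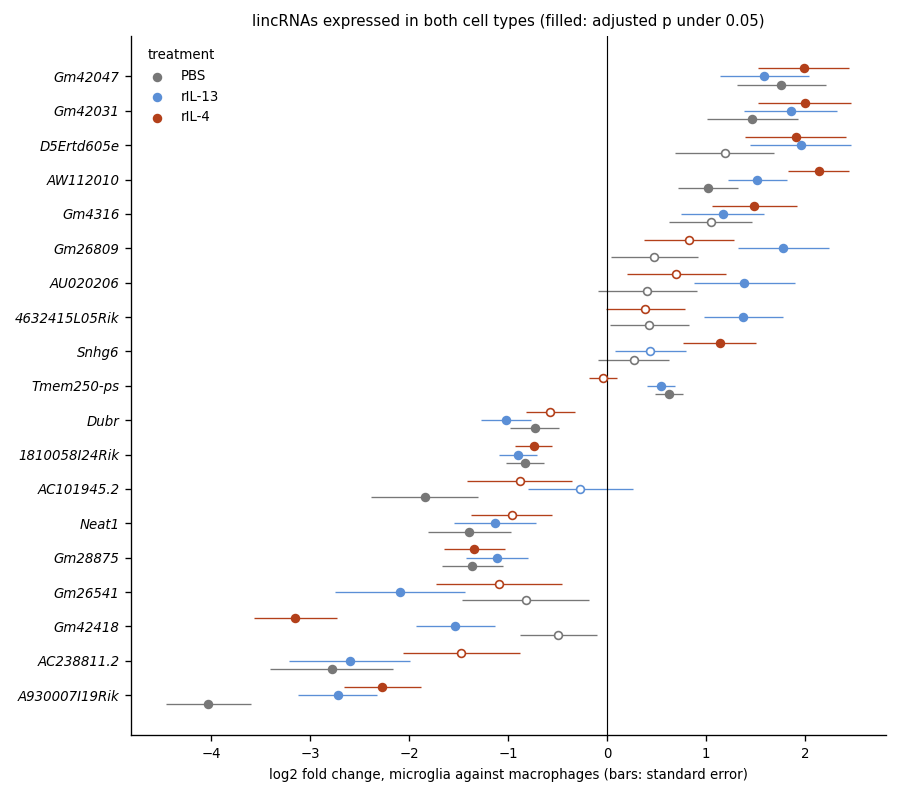
Log2 fold change of microglia against macrophages, with standard errors, for the 19 lincRNAs that passed in at least 1 treatment, with colours for treatments and filled points for an adjusted p under 0.05. A930007I19Rik lay lowest with PBS (-4.03) and AW112010 highest with rIL-4 (2.14).

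Members that reached the limit in a single cell type are described by their values, since their selection used this contrast. Meg3 (chr12:109541001-109571726), an imprinted RNA of the Dlk1-Dio3 region, had 82.7, 405 and 369 normalised counts in PBS microglia, and 23.9 to 290 in cytokine-treated microglia. It had 0 to 15.3 in macrophages. Bvht, known from heart development, had 101 to 258 in microglia and 3.83 to 29.5 in macrophages, and Lockd, transcribed next to Cdkn1b, had 97.4 to 268 and 3.83 to 31.3. Gm39090 had 18.5 to 103 in microglia and 0 in every macrophage library. Gm32688 had 53.8 to 185 in microglia and at most 1.12 in macrophages. On the macrophage side, Gdap10 had 141 to 843 in macrophages and 0 to 248 in microglia. Xist is on this side only through mouse 7.

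Of the nuclear RNAs Malat1 and Neat1, Neat1 passed the threshold between cell types and neither passed between treatments. Malat1 (chr19:5795690-5802672) had 17633, 14349 and 15220 normalised counts in PBS macrophages, 5404, 8380 and 8451 in rIL-13 macrophages and 18432, 5894 and 19516 in rIL-4 macrophages. The rIL-13 values lay below PBS without overlap, but the log2 fold change of -1.08 ± 0.37 missed the threshold (edgeR adjusted p = 0.155). Neat1 (chr19:5824708-5845478) had 2226, 3028 and 4557 in PBS microglia and 12050, 6100 and 7599 in PBS macrophages. It was lower in microglia with PBS (-1.39 ± 0.42, edgeR adjusted p = 0.0211) and with rIL-13 (-1.13, adjusted p = 0.0496), and each call held in 1 of 3 fits that left out a mouse of the treatment. The rIL-13 call was lost without mouse 6 or 7 (adjusted p up to 0.344). In the fit that blocked on the mouse both calls were lost (edgeR adjusted p = 0.0574 with PBS and 0.117 with rIL-13). The rIL-13 call was also lost with DESeq2 size factors and with library sizes without ribosomal-repeat and mitochondrial genes.

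Xist (X:103460366-103483254, minus strand) had 5035, 3244 and 4690 normalised counts in PBS microglia and 6914, 4710 and 3760 in PBS macrophages. The rIL-4 libraries had 4189, 3657 and 5573 in microglia and 10155, 3233 and 6419 in macrophages. In rIL-13 microglia, mice 5 and 6 had 5193 and 2835 and mouse 7 had 0.789, and in rIL-13 macrophages mice 5 and 6 had 3595 and 3245 and mouse 7 had 97.4. Ftx, a lincRNA of the X-inactivation centre, had 23.1, 57.8 and 66 normalised counts in rIL-13 macrophages and 141, 124 and 68.3 in PBS macrophages (-1.17 ± 0.46, edgeR adjusted p = 0.206). In mouse 7, Ftx was at 155 in microglia and 66 in macrophages, the highest of its group in both.

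The hosts of small nucleolar RNAs, which carry these RNAs in their introns, had 4 members (Snhg6, Snhg12, Snhg20 and Epb41l4aos). None of the 4 changed with a cytokine. Snhg6 had 176, 215 and 167 normalised counts in PBS macrophages and 83.3, 122 and 120 in rIL-4 macrophages (-0.78 ± 0.28, edgeR adjusted p = 0.0977). Of 15 tested genes on a list of such hosts, members and others, 3 were higher in microglia with PBS, 4 with rIL-4 and 4 with rIL-13, and 0 lower, where 15.7%, 15.2% and 16.8% of all genes were higher. Snhg6 was the only member among these, with rIL-4 (1.14, edgeR adjusted p = 0.0294), and it lost the call in each of the 3 fits that left out a mouse and with the mouse as a block (adjusted p = 0.0693). Its call was also lost with no filter on low counts and with only the 6 libraries of that treatment.

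Pvt1, next to the Myc gene, had 223 to 318 normalised counts in PBS microglia and 130 to 147 in PBS macrophages, and its log2 fold changes with the cytokines lay between -0.37 and 0.04 with an edgeR adjusted p of 0.853 to 1. Gm14005, also known as Morrbid, an RNA that restrains the pro-apoptotic gene Bcl2l11 in myeloid cells, had 167, 335 and 228 in PBS macrophages and 50.8, 155 and 126 in rIL-4 macrophages. The groups did not overlap, and the log2 fold change of -1.14 ± 0.59 missed the threshold (edgeR adjusted p = 0.241). AW112010 had log2 fold changes of 0.79 ± 0.34 in rIL-4 microglia (edgeR adjusted p = 0.286) and -0.35 ± 0.22 in rIL-4 macrophages (adjusted p = 0.336).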

How the data were processed

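Libraries were made from sorted cells by SMART-seq2, which primes on poly(A), amplifies by PCR without molecular identifiers and keeps no strand. The authors mapped reads to GRCm38 with STAR 2.5.3a and deposited RSEM 1.3.0 expected counts per gene as whole numbers, without normalisation (versions from the submitters' processing notes). The annotation release was not given in the sources used here. All library totals, and the precision that counts give, cover counting error only.

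Members and gene lists were chosen with earlier results of these data known. Low genes were removed with filterByExpr (at least 10 counts), and edgeR 4.0.16 (R 4.3.3) with TMM and the quasi-likelihood test was fitted to the 9 libraries of a cell type for treatments and to all 18 libraries for cell types and interactions, with Benjamini-Hochberg adjustment over all genes tested and a threshold of 0.05. Normalised counts are counts divided by TMM library sizes relative to the mean of the 18. Standard errors were derived from the F statistic. By their labels, microglia and macrophage libraries with the same mouse number came from the same animal. Same-mouse correlations of deviations from group means were 0.054 to 0.3 over 10191 genes. For mouse 3 (0.054), another PBS mouse gave 0.146, and for every other mouse the same-mouse value was the higher. No pair of replicates agreed within counting noise. The fit was checked on simulated counts with known changes, of which fewer were recovered in microglia than in macrophages. Named lincRNAs were those on role lists, the 20 highest per cell type, those called in each comparison (up to 12 each way), the 5 with the smallest p where none was called, and 3 rows on each side of the limit. Alternatives were DESeq2 1.42.0 as test or size factors, no filter, fewer or more libraries in the fit, library sizes without ribosomal-repeat and mitochondrial genes, the mouse as a block, and each library left out. Exon lengths and positions came from GENCODE M21.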

Additional observations from a re-analysis of the deposited data

Results flagged for a closer look

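The response to rIL-4 had a different size in microglia and macrophages for 1 of the 64 lincRNAs that reached the limit in both cell types, Gm42418. The calls of 3 others, E230001N04Rik, Gm14221 and Gm26742, are listed as a description, since these were selected through macrophages only. By edgeR's quasi-likelihood test, the adjusted p against PBS was 0.00764 for E230001N04Rik, 0.0207 for Gm14221, 0.0348 for Gm42418 and 0.0479 for Gm26742. Against rIL-13, it was 0.027 for E230001N04Rik and 0.0497 for Gm14221. E230001N04Rik and Gm14221 were at 0 in the 3 rIL-4 microglia libraries, and Gm26742 was at 0 in all cytokine-treated microglia. The presence of these 3 in every macrophage library was selected. Their p values and kept calls therefore cannot show that the response differs between the cell types. Of those 64, none passed against rIL-13 by edgeR, with 2 at an unadjusted p under 0.05, against 10% of all genes. Gm42418 was higher in rIL-4 macrophages and not in rIL-4 microglia. Leaving out each mouse in turn, E230001N04Rik kept its call against PBS in 7 of 9 fits, Gm14221 and Gm42418 in 3 of 9 and Gm26742 in 0 of 9. Against rIL-13, E230001N04Rik kept it in 2 of 9 and Gm14221 in 0 of 9. Each mouse gave a library of either cell type. With the mouse as a block, the edgeR adjusted p against PBS was 0.00592 for Gm42418, 0.0547 for E230001N04Rik, 0.126 for Gm14221 and 0.294 for Gm26742, and against rIL-13 it was 0.171 for E230001N04Rik and 0.304 for Gm14221.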

How the results depend on the processing

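Of the calls of single lincRNAs, none changed direction: 162 of 303 values that left out a library kept the call, and 308 of 348 under the other settings. A limit of 10 counts decides membership, and values near that limit move with counting error. The cause of each shift below was not tested. Counts under other settings, here and above, show how far the number of members called moves. The share of all genes under the same setting is not given for them. Below, those of the cell type difference cover all 155 members, and those of microglia against macrophages the 64 that reached the limit in both. The number of members itself was 210 with at least 5 counts, 104 with at least 20 and 154 with at least 0.25 CPM.

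With DESeq2's Wald test, 5 members passed for rIL-4 against PBS in microglia, 4 for rIL-4 against rIL-13 in microglia, 7 for rIL-13 against PBS in macrophages and 3 for rIL-4 against rIL-13 in macrophages. For the difference between cell types it gave 9 (rIL-4 against PBS), 1 (rIL-13 against PBS) and 5 (rIL-4 against rIL-13). With no filter on low counts, the values were 1 for rIL-4 against PBS in microglia, 3 for rIL-13 against PBS and 1 for rIL-4 against rIL-13 in macrophages, and 2 and 1 for the cell type difference in rIL-4 against PBS and against rIL-13. With only the 6 libraries compared, they were 0 for rIL-4 against PBS in microglia and 3 for rIL-13 against PBS in macrophages, and 18 for microglia against macrophages with PBS. With all 18 libraries in one model, rIL-4 against PBS gave 8 in microglia and 3 in macrophages, rIL-13 against PBS 2 and 0, and rIL-4 against rIL-13 2 and 1. With the mouse as a replicate block, the cell type difference was called for 1 member in rIL-4 against PBS and 0 in rIL-4 against rIL-13, while microglia against macrophages gave 10, 9 and 14 with PBS, rIL-4 and rIL-13. The block changed no other count of members by over 1.5 times.

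Leaving out each library or mouse, the counts were 0 to 2 for rIL-4 against PBS in microglia, 0 to 0 for both other microglia comparisons, 5 to 14 for rIL-4 against PBS, 0 to 4 for rIL-13 against PBS and 0 to 1 for rIL-4 against rIL-13 in macrophages. They were 4 to 12, 7 to 10 and 7 to 17 for microglia against macrophages with PBS, rIL-4 and rIL-13. For the cell type difference they were 0 to 4 in rIL-4 against PBS and 0 to 1 in rIL-4 against rIL-13.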
